A study of Homo sapiens with 2 samples.

Results

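Long noncoding RNAs with a known connection to cancer were followed in SBC-3 cells after knockdown of another such RNA, HOTAIR. The set held 10 genes, namely MALAT1, NEAT1, GAS5, DLEU2, H19, MEG3, PVT1, HOTAIRM1, TUG1 and UCA1. A probe was taken as a member when the RefSeq accession it carries, beginning with NR_ for a noncoding transcript, belongs to 1 of these genes. Of the 10 genes, 6 had a probe by this rule (MALAT1, GAS5, H19, MEG3, PVT1 and UCA1), out of 19061 genes named on the array. NEAT1, DLEU2, HOTAIRM1 and TUG1 had none, and their levels were not analysed here. TUG1 is listed as protein coding in the gene table, and the others as long noncoding RNAs. The 6 genes had 8 probes with 10 spots between them, so that 6 of the probes rested on 1 spot per array.

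SBC-3 is an adherent cell line of small-cell lung cancer (SCLC). The cells were transfected with #1 siHOTAIR, an siRNA against HOTAIR, or with siGFP, the control siRNA, which is directed against green fluorescent protein, and total RNA of each was hybridized to 1 Agilent array. With 1 array per condition and no replicate, no test between the conditions was possible and no P-value is given. The siRNA, the culture and the array cannot be told apart, a second siRNA was not measured on the arrays, and less RNA per cell cannot be told apart from fewer cells that make it.

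Long noncoding RNAs are transcripts without a long open reading frame that act as RNA, for example as scaffolds in the nucleus, as decoys for proteins, or as the source of small RNAs cut from their exons or introns. Some are regulated mainly by their decay, so that their levels can follow changes in translation and growth. In lung cancer, MALAT1 was described as a transcript of metastatic tumours, H19 is an imprinted growth-related gene, and PVT1 lies next to the oncogene MYC.

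The sequences that these RNAs and the siRNA contribute to the cell are short, and are shown because H19 and DLEU2 are known for the miRNAs cut from them, while the siRNA enters the same silencing complex. The antisense strand of #1 siHOTAIR is that listed by the study for the siRNA it used, and the mature miRNAs are from RefSeq (GRCh38.p14). They are written 5′ to 3′ with the seed, bases 2 to 8, in capitals.
#1 siHOTAIR antisense: uCUCUCUGuacucccguucuu
hsa-miR-675-5p, from H19 (chr11:1996800-1996822, minus strand): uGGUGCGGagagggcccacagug
hsa-miR-15a-5p, from DLEU2 (chr13:50049167-50049188, minus strand): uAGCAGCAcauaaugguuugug
hsa-miR-16-5p, from DLEU2 (chr13:50049027-50049048, minus strand): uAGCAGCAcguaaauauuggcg
The pair of miRNAs from DLEU2 had the same seed, and 0 of the 3 miRNAs had the seed of the siRNA. Only these 5p miRNAs, with 2 distinct seeds, were compared. Matches of the siRNA seed to other transcripts were not examined, so the count says nothing about them. The miRNAs themselves were not measured on these arrays.

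GAS5 is a host gene of small nucleolar RNAs, which are released from its introns, and its spliced exons are removed by nonsense-mediated decay when ribosomes translate them. Many hosts of this kind start with a run of pyrimidines, the sign of mRNAs whose translation follows growth signals. The first 30 bases of GAS5 in the RefSeq entry are shown beside those of 4 other hosts that were detected (GRCh38.p14). These 4 were chosen because their entries open with such a run. The run, in capitals, begins with C and holds at least 4 bases of C or T. Detected hosts whose entries lack it, among them SNHG1, SNHG3 and SNHG8, are not shown.
GAS5 (chr1:173869016-173869045, minus strand): agatgtgtttattttggagcctacaccagc
SNHG5 (chr6:85678704-85678733, minus strand): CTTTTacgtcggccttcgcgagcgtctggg
SNHG7 (chr9:136728155-136728184, minus strand): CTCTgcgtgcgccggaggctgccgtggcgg
SNHG12 (chr1:28581844-28581873, minus strand): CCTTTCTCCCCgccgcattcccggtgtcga
ZFAS1 (chr20:49278642-49278671, plus strand): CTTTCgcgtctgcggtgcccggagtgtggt
Read on the strand of the transcript only, such a run opened 5 of 19 host genes with an entry, against 5.45% of 35116 starts in the table. The entry of GAS5 gives a single start of this gene, and the absence of the run there says only that these letters do not open that entry.

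HOTAIR itself was lower on the #1 siHOTAIR array. The only HOTAIR probe, with 1 spot, had a signal of 108 with #1 siHOTAIR and 244 with siGFP. Relative to the 75th percentile of each array this is a log2 ratio of -1.22 (2.34-fold lower in #1 siHOTAIR-transfected cells), with a measurement SD of 0.18. With normexp background correction the log2 ratio was -0.76, and without background correction -0.73, both short of 2-fold. The reference genes lay close to 0, with log2 ratios of -0.05 and -0.02 for the ACTB probes and 0.00 for GAPDH.

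Markers of the labelled cell type were mixed. NEUROD1, a transcription factor of a neuroendocrine SCLC subtype, had a signal of 213 with #1 siHOTAIR and 372 with siGFP, and DLL3, a Notch ligand of SCLC, had 679 and 570. YAP1, a Hippo coactivator that marks SCLC lacking neuroendocrine features, had 6522 and 6750. The probes of INSM1 and SYP were not well above background on either array, and CHGA was on the #1 siHOTAIR array alone. The mesenchymal gene VIM had 11289 and 10119, the collagen genes COL1A2 and COL1A1 had 3758 and 3741 and 832 and 414, respectively, while the epithelial adhesion gene CDH1 and the endothelial gene PECAM1 were not well above background on either array. Other epithelial markers were detected, with 2825 and 2557 at a KRT8 probe and 431 and 565 at a KRT18 probe, whereas the other KRT8 probe (31.5 and 54.0), the other KRT18 probe (16.2 and 36.1) and EPCAM were well above background with siGFP alone. Of the 4 probes of PTPRC, a marker of blood cells, 1 was well above background on both arrays.

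All 8 member probes gave signals well above background on each array, and 0 of them differed by at least 2-fold. The background for this count was 7.4% of the 24117 probes compared, 3.03% of the 21428 that were well above background on both, and, among probes with NR_ accessions, 11.2% of 762 compared and 4.67% of 642 well above background on both. At such shares a count of 0 among 8 probes does not set the members apart. The log2 ratios were above 0 at 3 probes (MALAT1, GAS5 and H19) and below 0 at 5 (MEG3, PVT1 and UCA1), and the largest difference was 1.45-fold. With each gene represented by its probe with the highest mean signal, the median of the 6 genes was 0.04, and that of all 13014 genes compared was 0.02, of which 6.15% differed by at least 2-fold.

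**Figure D1:**
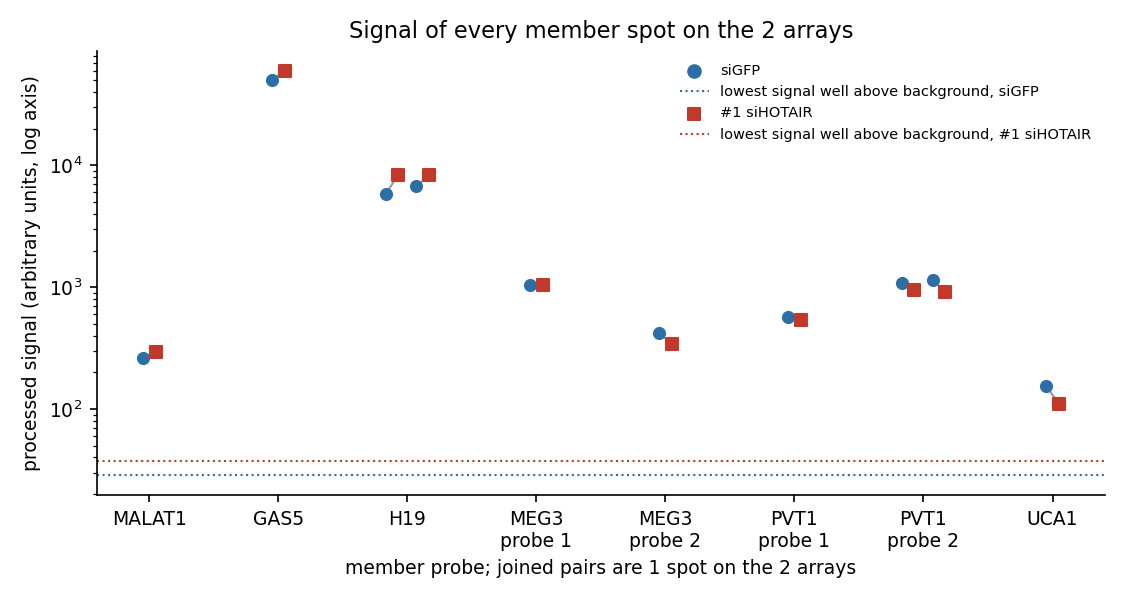
Processed signal, on a log axis in arbitrary units, of each of the 10 member spots on the siGFP array (circles) and the #1 siHOTAIR array (squares), with a line joining the same spot on both. All spots lie above the lowest signal well above background (dotted lines, 28.6 and 37.3), and the levels of different probes cannot be compared with each other.

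Measurement error was taken from probes printed in 10 spots, at the same level of signal as the probe described. It covers the spread between spots of an array and leaves out the spread between cultures. In units of this SD, the ratio of H19 had a size of 6.93, the second PVT1 probe 4.95 and the second MEG3 probe 3.17. GAS5 had 2.59, UCA1 2.37, the first PVT1 probe 1.02, MALAT1 0.94 and the first MEG3 probe 0.42. The share of all compared probes with sizes like these was not counted. Whether the members differ from other probes in this respect is therefore not known. The error that the scanner software assigns to a spot is larger, with an SD of the log2 ratio of 0.20 for the GAS5 spot and 0.25 for the UCA1 spot. It was 0.20 for each spot of H19 and of the second PVT1 probe, and 0.21 for the second MEG3 probe. The sizes in units of SD rest on the spread of repeated spots and were not computed with this larger error.

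MALAT1 is a nuclear transcript that collects in speckles, the storage sites of splicing factors. Its only spot had a signal of 293 with #1 siHOTAIR and 263 with siGFP. The log2 ratio was 0.11 ± 0.11 (measurement SD), so the difference was no larger than the spread of repeated spots. The probe is designed on 1 part of a long transcript, and the other parts of MALAT1 were not measured.

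GAS5, the small nucleolar RNA host described with its start above, is known as a growth arrest transcript that can bind the glucocorticoid receptor. The signal was 59722 with #1 siHOTAIR and 50592 with siGFP. The spot was not saturated on either array, and its pixels were 845 and 736 times as bright as the local background. The log2 ratio was 0.19 ± 0.07 (measurement SD), or 1.14-fold higher, and lay within the software SD of 0.20.

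H19 is expressed from the maternal allele, and its first exon holds the hairpin of hsa-miR-675-5p shown above. Its probe was the member probe above 0 with the largest ratio. The upper of its spots gave 8377 with #1 siHOTAIR and 5830 with siGFP, and the lower spot gave 8340 and 6769. Both spots were brighter in #1 siHOTAIR-transfected cells, and the #1 siHOTAIR values of the spots were closer to each other than the siGFP values. The single log2 ratios were 0.48 and 0.26, with a gap of 0.22 against an SD of 0.11 for such a gap, and their mean was 0.37 ± 0.05 (1.29-fold). The first of these spots lies in the upper 3 of 8 bands of rows, and without those bands the value was 0.26. Among 2461 probes with 2 spots and signals above the 75th percentile, the median gap was 0.06 and the 95th percentile 0.23, so the gap of H19 was among the wider ones.

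MEG3 is an imprinted transcript of the DLK1 region that is expressed from the maternal allele and is known to raise p53 activity. The probes carry accessions of different transcripts of the gene. The first had a signal of 1052 with #1 siHOTAIR and 1045 with siGFP, with a log2 ratio of -0.04 ± 0.09. The second had 339 and 422, with a log2 ratio of -0.36 ± 0.11 (1.29-fold lower). The probes disagreed by 0.33, against an SD of 0.14 for such a difference, and whether single transcripts of MEG3 differ was not tested.

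PVT1, which lies beside MYC and is amplified with it in many tumours, also had a pair of probes. The probe with 1 spot had a signal of 537 with #1 siHOTAIR and 564 with siGFP, a log2 ratio of -0.12 ± 0.11. The spots of the second probe had 941 and 1078, and 916 and 1144, respectively. All 3 PVT1 spots were thus lower in #1 siHOTAIR-transfected cells. The ratios of the second probe's spots were -0.24 and -0.37, a gap of 0.12 equal to its SD of 0.12, with a mean of -0.30 ± 0.06 (1.23-fold lower). The probes differed from each other by 0.19, against an SD of 0.13.

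UCA1, a transcript first described in urothelial carcinoma, had the largest difference among the members. Its only spot had a signal of 110 with #1 siHOTAIR and 155 with siGFP, a log2 ratio of -0.54 ± 0.23 (1.45-fold lower). Its pixels were only 3.07 and 3.45 times as bright as the local background. With normexp background correction the log2 ratio was -0.26, and without any background correction -0.24, both computed from the median of the pixels.

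**Figure D2:**
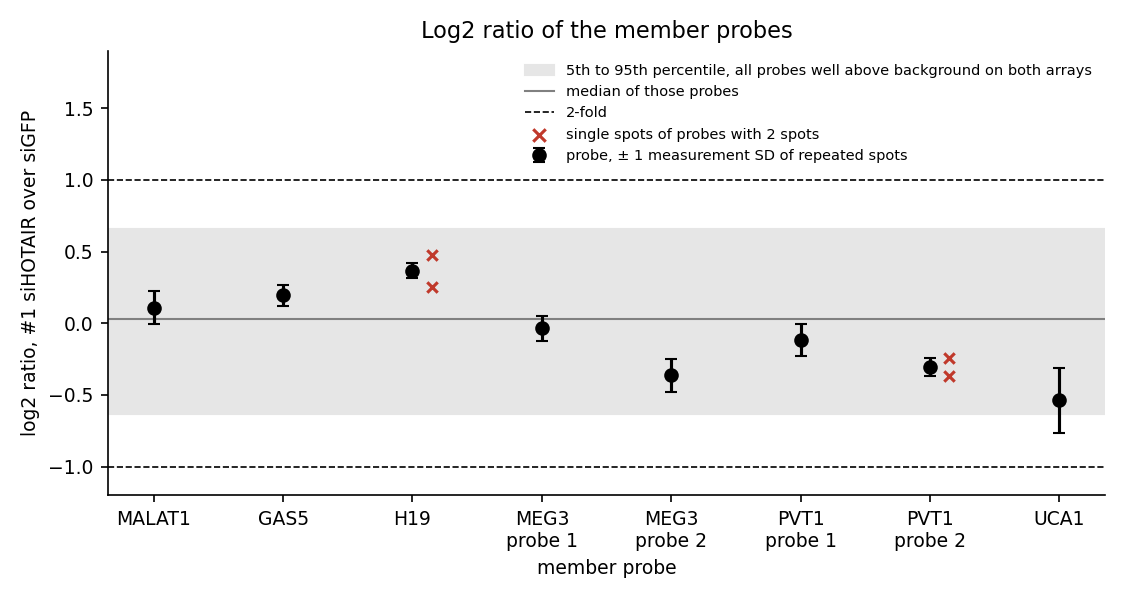
Log2 ratio of #1 siHOTAIR over siGFP for each member probe (points, with bars of 1 measurement SD of repeated spots) and for the single spots of the probes with 2 spots (crosses). All 8 probes lie inside the grey band from -0.63 to 0.66, which holds the 5th to the 95th percentile of the 21428 probes detected on both arrays.

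The direction of each member was followed over 9 other ways of scaling, background correction or selecting spots. Of 71 such values, 13 could not move, since no dim signal or no spot of the probe was affected. Of the other 58, 51 moved by less than the measurement SD of the probe and 7 by more, and 2 had the opposite sign, both at the first MEG3 probe. These were scaling to the spike-in RNA and no scaling, which add the same amount (0.08 and 0.05) to every probe. The log2 ratio of H19 ranged from 0.26 to 0.44, that of GAS5 from 0.15 to 0.27, and that of MALAT1 from 0.08 to 0.19. The second PVT1 probe ranged from -0.37 to -0.23, the second MEG3 probe from -0.39 to -0.28, and UCA1 from -0.57 to -0.24. The largest log2 ratio in either direction was 0.57 in size, and no member reached 2-fold under any of them.

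**Figure D3:**
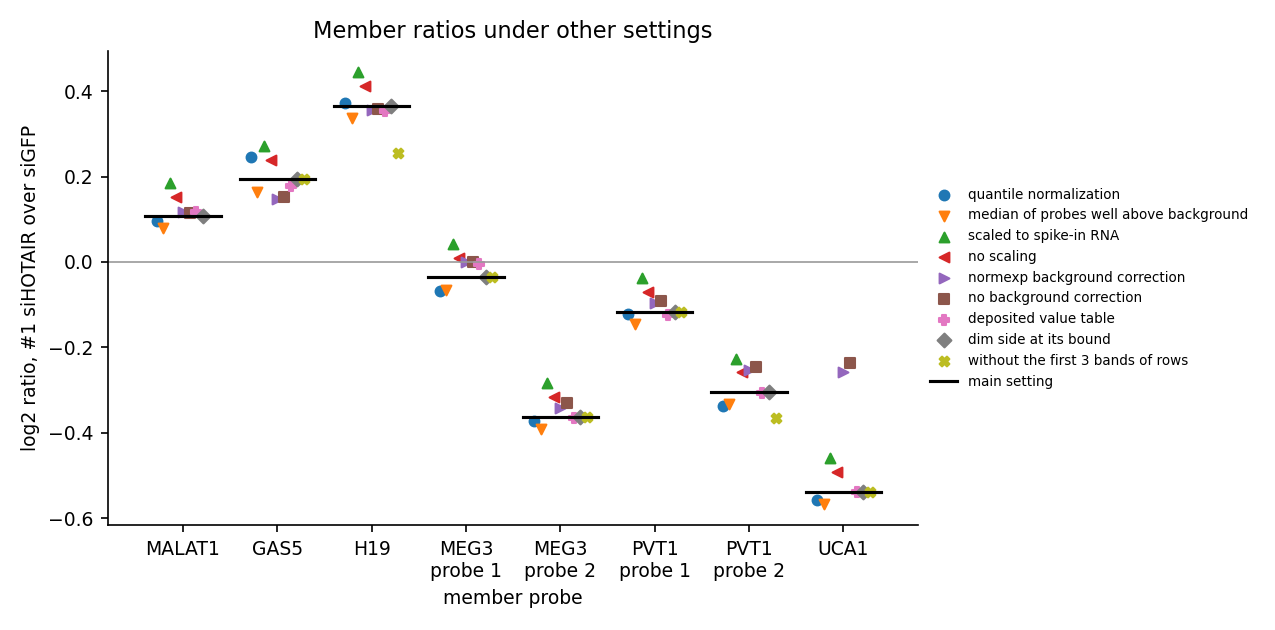
Log2 ratio of #1 siHOTAIR over siGFP for each member probe under the setting of the report (black lines) and under 9 other settings (coloured symbols). Signs were kept except at the first MEG3 probe, which ranged from -0.07 to 0.04, and the UCA1 ratio came closer to 0 under both changes of background correction.

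Genes that share a process with the members were examined next, beginning with other host transcripts of small RNAs, the class to which GAS5 belongs. Of 22 listed hosts, 20 had a probe and 17 were compared. None differed by at least 2-fold, but 15 of the 17 had a log2 ratio above 0 and 2 below, with a median of 0.19, the same as the value of GAS5. Among all genes compared 52.3% were above 0, and among 6342 genes brighter than the 75th percentile on both arrays 53.6% were, with a median of 0.02. SNHG1 had a signal of 16137 with #1 siHOTAIR and 12910 with siGFP (log2 ratio 0.28), and ZFAS1 24344 and 18555 (0.35). SNHG12, whose start is shown above, lay on the same side (0.20), and SNHG5 stood at 0.07. SNHG7 had a pair of probes that disagreed, with 3878 and 3097 (0.28 ± 0.07) at the probe used for the gene and 692 and 727 (-0.12 ± 0.11) at the other. The largest ratios were those of MIR22HG, the host of miR-22 (0.47 ± 0.11), and SNHG11 (-0.38 ± 0.11). MIR17HG, the host of the miR-17 cluster that MYC activates, had -0.18. Each of these probes had 1 spot, no list test was run, and scaling to the spike-in RNA moved the median to 0.27 with the shift of all genes.

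The decay of GAS5 by the nonsense-mediated pathway gave the next list. All 10 listed factors were compared, 0 of them differed by at least 2-fold, and 6 lay above 0 and 4 below, with a median of 0.07. Among all genes compared, 6.15% differed by at least 2-fold and 52.3% were above 0, which is the background for the lists that follow as well. Spike-in scaling, which moves all genes alike, put 8 of the factors above 0 and 2 below, with a median of 0.15. The largest ratios were those of SMG8, a regulator of the SMG1 kinase (0.49 ± 0.10), and UPF3B, a factor bound at exon junctions (-0.33 ± 0.08). For the glucocorticoid receptor, which GAS5 can bind, 7 of 8 listed genes were compared and 0 passed 2-fold, with a median of 0.10. The receptor gene NR3C1 had a signal of 1619 with #1 siHOTAIR and 1970 with siGFP (-0.33 ± 0.06), and its other probe had -0.10 ± 0.23. Its targets PER1 (901 and 544, 0.68 ± 0.07) and FKBP5 (105 and 75.1, 0.44 ± 0.16) were higher in #1 siHOTAIR-transfected cells, and DUSP1, with 10 spots, had 0.13 ± 0.04. SGK1 had 0.10 ± 0.16 and KLF9 -0.04 ± 0.16. ZBTB16 (34.3 and 32.9) was well above background on 1 array alone, and its ratio is not given. It is among the 7 genes compared, and the median was 0.11 over genes well above background on both arrays.

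For MALAT1 and NEAT1 the proteins of their nuclear bodies were listed. Of 12 paraspeckle proteins, which assemble on NEAT1, 2 lay above 0 and 10 below, with a median of -0.06 and 0 past 2-fold. TAF15 (7316 and 9264, -0.39 ± 0.05) and RBM14 (5259 and 6267, -0.30 ± 0.05), both RNA-binding proteins, had the largest ratios. Scaling to the spike-in RNA, which adds 0.08 to the log2 ratio of every gene, brought the median to 0.02 and that of all genes to 0.10, with 7 of the proteins above 0 and 5 below. The count also rests on the probe taken for a gene. HNRNPH3, counted below 0 at -0.02 ± 0.05, had 0.22 ± 0.02 at its other probe, which has 9 spots. TARDBP, counted below 0 at -0.05 ± 0.05, had 0.61 ± 0.11 and 0.28 ± 0.18 at its other probes. In contrast, EWSR1, counted above 0, had -0.04 ± 0.23 at its dimmest probe. HNRNPK and RBM14 were below 0 at each of their probes that was well above background on both arrays. Of 12 proteins of nuclear speckles, 6 lay above and 6 below 0, with a median of -0.01, which moved with all genes to 0.06 under spike-in scaling. This count rests on the probe taken as well. SRSF7, counted below 0 at -0.20 ± 0.07, had 0.60 ± 0.08 at its other probe, which has 2 spots. SRSF2, counted below 0 at -0.14 ± 0.05, had 0.09 ± 0.09 at its other probe, while SRSF3 and SRSF5 were below 0 at both of theirs. SRRM2, a core protein of speckles, had 10420 and 7513 (0.43 ± 0.05), with a second probe at 0.47, and the splicing factor SRSF6 had 0.29 ± 0.05.

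The imprinted genes listed with H19 and MEG3 numbered 17, of which 8 were compared. None passed 2-fold, and the median was -0.09. CDKN1C, a cell cycle inhibitor expressed from the maternal allele, had 2642 with #1 siHOTAIR and 3561 with siGFP (-0.48 ± 0.06), and PLAGL1, a zinc finger gene, had 43.6 and 36.4 (0.22 ± 0.39), a difference within its error. IGF2, the growth factor gene that shares enhancers with H19 and is expressed from the paternal allele, had log2 ratios of 0.09 ± 0.07 and 0.18 ± 0.05 at its probes. The p53 list, given because MEG3 acts on p53, had 10 genes compared, 0 past 2-fold and a median of -0.12. Its largest ratios were those of TP53INP1, a p53-induced stress gene (0.53 ± 0.13), and BBC3, which encodes the death protein PUMA (-0.47 ± 0.06).

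Other noncoding RNAs with a known connection to cancer numbered 36, of which 25 had a probe and 14 were compared. HOTAIR was the only one to differ by at least 2-fold, and 6 lay above 0 and 8 below, with a median of -0.18. This median depends on the filter, being -0.06 over genes well above background on both arrays and 0.10 with no filter on dim probes. The following were named after their values were seen. NORAD, a cytoplasmic RNA that binds PUMILIO proteins, had 1965 and 3459 at the first probe and 904 and 1562 at the second, with log2 ratios of -0.86 ± 0.08 and -0.83 ± 0.09. TP53TG1, a p53-induced transcript, had 701 and 1328, and 143 and 273, with log2 ratios of -0.97 ± 0.10 and -0.98 ± 0.18. Both NORAD and TP53TG1 thus had a pair of probes that gave nearly the same ratio under the setting of the report. The TP53TG1 probes lay further apart with normexp background correction (-0.95 and -0.73) and without background correction (-0.93 and -0.70). DANCR, known for holding back differentiation, had 9842 and 5985 at its only spot, a log2 ratio of 0.67 ± 0.07.

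**Figure D4:**
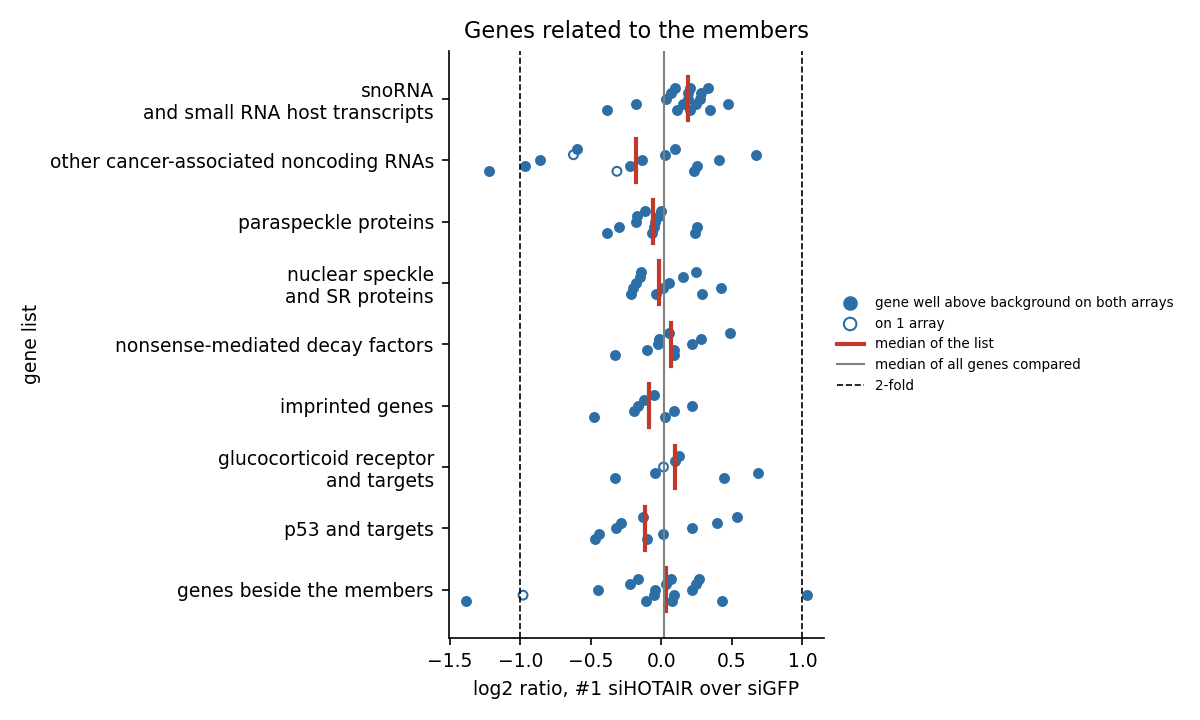
Log2 ratio of #1 siHOTAIR over siGFP of the genes of 9 lists, each point 1 gene (open where only 1 array was well above background), with the median of each list in red, the median of all genes compared in grey and dashed lines at 2-fold. The hosts of small RNAs have 15 of 17 genes above 0, and HOTAIR, MRPL23 and HOXA2 lie outside the 2-fold lines.

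The genes beside the members in the RefSeq gene table were examined also for the 4 members without a probe. Of 20 listed genes of these neighbourhoods, all protein coding but the noncoding DLEU1, 17 were compared. Of these, 1 was at least 2-fold higher and 1 at least 2-fold lower, with 9 above 0, 8 below and a median of 0.04. Among all 13014 genes compared, 6.15% differed by at least 2-fold and 52.3% were above 0, so these counts do not set the neighbours apart. With spike-in scaling, 11 of the neighbours lay above 0 and 6 below. TNNT3, SMTN, SERPINC1, GSDMC, OR10H1 and CYP4F2, which also lie next to a member and are described with the others, are not in this list or its counts. Beside MALAT1 and NEAT1, FRMD8 had 2887 and 2408 (0.22 ± 0.09). ZBTB37, which overlaps GAS5, had -0.11 ± 0.23. DLEU2 overlaps TRIM13, a ubiquitin ligase gene, whose probes had 0.08 and -0.09, and its farther neighbour RB1, the tumour suppressor lost in most SCLC, had 1393 and 1844 (-0.45 ± 0.03, 10 spots). SPRYD7, on 1 side of DLEU2, had -0.05 ± 0.23, and DLEU7, on the other, was well above background with siGFP alone. SERPINC1 beside GAS5 and KCNRG within DLEU2 were not well above background on either array.

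MRPL23, a mitochondrial ribosomal protein gene that overlaps H19 in the table, was the neighbour with the largest ratio. Its only spot had 1987 with #1 siHOTAIR and 5040 with siGFP, a log2 ratio of -1.39 ± 0.08 (2.62-fold lower), and the value ranged from -1.42 to -1.30 over 9 other settings. H19 itself lay on the other side of 0, and TNNT3, a muscle troponin gene before H19 in the table, had -0.33 ± 0.16 and -0.11 ± 0.23 at its probes. HOXA2, a homeobox gene beside HOTAIRM1 in the HOXA cluster, had 110 and 51.8 at its only spot, a log2 ratio of 1.04 ± 0.23 (2.05-fold higher), which became 0.52 with normexp background correction and 0.48 without background correction. HOXA3, farther along the cluster, had 0.04 ± 0.09.

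Of the other neighbours, MYC, beside PVT1, had 8146 and 7528 over 10 spots, a log2 ratio of 0.07 ± 0.02, where the PVT1 probes had -0.12 and -0.30. Beside TUG1, the chromatin factor gene MORC2 had 469 and 338 (0.43 ± 0.11) and SMTN, a smooth muscle cytoskeletal gene, 0.24 ± 0.13. Beside MEG3, DLK1, the imprinted partner gene, had 86.9 and 94.6 at the probe that was well above background (-0.17 ± 0.23), and RTL1 was not well above background on either array. The neighbours of UCA1, OR10H1 and CYP4F2, and GSDMC beside PVT1, were not well above background on either array.

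**Figure D5:**
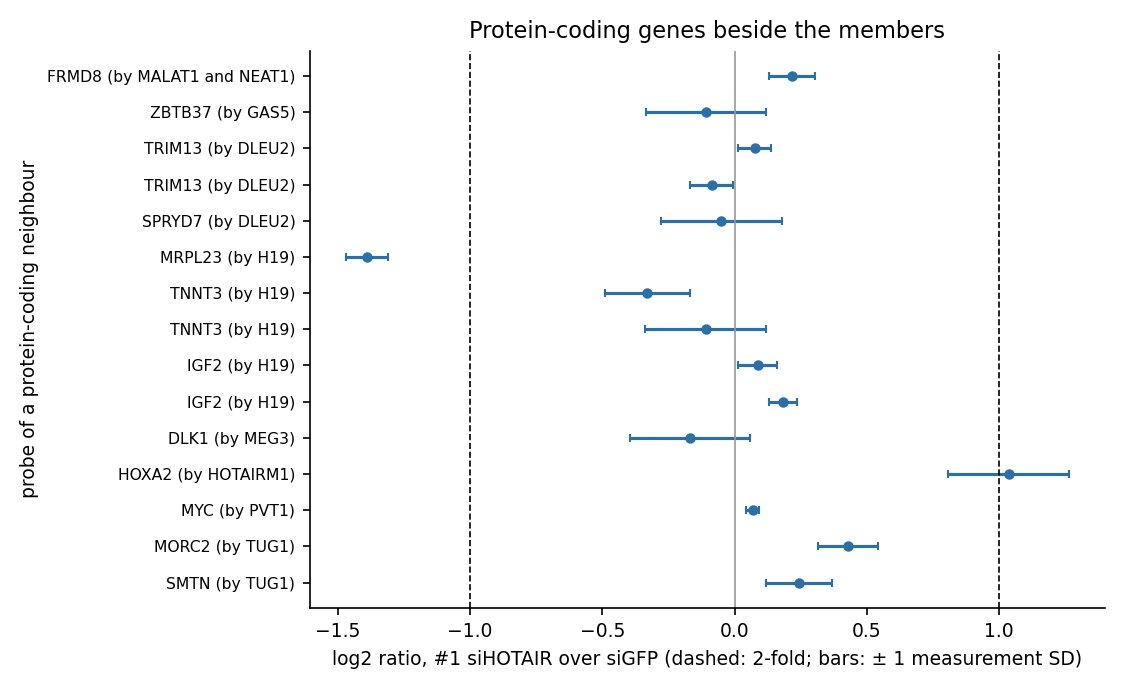
Log2 ratio of #1 siHOTAIR over siGFP of the probes of the reported protein-coding genes next to or overlapping a member, detected on both arrays, with bars of 1 measurement SD and dashed lines at 2-fold. MRPL23 (-1.39) and HOXA2 (1.04) lie outside the 2-fold lines, and the other probes shown between -0.33 and 0.43.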

How the data were processed

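RNA of SBC-3 cells given #1 siHOTAIR or siGFP was labelled with Cy3 and hybridized to 1 array each, both on the same slide and scanned in 1 run per the file headers. The authors extracted the spots with Agilent Feature Extraction 10.10.1.1, and the deposited processed signal is an intensity after background subtraction that was not normalized between arrays. The deposited value table holds the background-subtracted intensity (largest difference 0). Of 58717 spots that are not controls, 393 and 375 were marked as outliers and left out. Signals were divided by the 75th percentile of the array (650.3 for #1 siHOTAIR and 629.9 for siGFP) and averaged per probe as log2 values. Comparison required that 50% or more of the spots stood well above background in 1 array or both. By that criterion 52.1% of probes were detected with #1 siHOTAIR and 55.3% with siGFP. The number of arrays limits the precision, and no test was made.

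Names came from matching unversioned accessions to the RefSeq gene table of GRCh38.p14 (85.4% of 1581 NR_ probes matched). The array design is annotated on hg19, so the table served for names and the order of neighbours. A probe of a member whose accession was not matched would have been missed. Named genes were all members, HOTAIR, ACTB, GAPDH, neighbours of the members, and in each list the genes past 2-fold (at most 4), or otherwise the 2 with the largest ratio on both arrays. Some marker and neighbouring genes are not reported here by name. Other genes named, including NORAD, TP53TG1 and DANCR, were picked afterwards. The members and lists were chosen with earlier results of these data known. The measurement SD was taken at 6 levels of signal. The 2-fold call was tried on simulated data, with noise at the spread of repeated spots alone and planted changes larger than 2-fold. That trial does not bear on the smaller ratios of the members or on the spread between cultures. For normexp (offset 50) and the uncorrected signal, the median of a spot's pixels was used in place of the mean. Python 3.11.15, pandas 2.3.3, R 4.3.3 and limma 3.58.1 were used.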

Additional observations from a re-analysis of the deposited data

How the results depend on the processing

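The count of member probes past 2-fold was 0 under all 13 alternatives. The count for all compared probes, 1784, was 414 with normexp, 327 without background correction, 650 for probes well above background on both arrays, 3799 with no filter, 1070 with dim sides at their bound, 907 without the first 3 bands of rows, 4398 at 1.5-fold and 788 at 3-fold. The members' median of 0.04 was -0.046 over the median of each gene's probes and -0.036 without the first 3 bands, where MALAT1 drops out, and 0.11 with spike-in scaling, so its side of 0 is not settled. Scaling to spike-in RNA, which adds 0.078 to every log2 ratio by its construction, moved the medians of the hosts to 0.27, of the paraspeckle proteins to 0.018, of the speckle proteins to 0.064 and of the p53 list to -0.039. The same scaling brought the decay factors to 0.15, the glucocorticoid list to 0.18 and the imprinted genes to -0.008. The other noncoding RNAs came to -0.10 and the genes beside the members to 0.11. The median of the p53 list was -0.20 over the median of each gene's probes. The median of the other noncoding RNAs was -0.059 with normexp, -0.057 for genes above background on both arrays and 0.10 with no filter. A filter or threshold admits different probes by its construction, and the cause of the other moves was not tested. HOTAIR ranged from -1.25 to -0.73, the latter without background correction. MALAT1 has no value without the first 3 bands, where its spot lies. No paired analysis was possible because each condition had 1 array, and for the same reason no replicate could be left out. Signals close to the background, as at UCA1 and HOXA2, limit the precision of their ratios.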

Other observations

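Probes with NR_ accessions, the class from which the members were taken, were lower more often than higher in #1 siHOTAIR-transfected cells. Of 762 compared, 21 were at least 2-fold higher and 64 at least 2-fold lower, with a median log2 ratio of -0.08, against 795 higher and 989 lower among all 24117 compared probes, with a median of 0.01. Among the 642 well above background on both arrays, 4 were higher and 26 lower, and the 5th to 95th percentiles were -0.94 and 0.52, against 321 higher and 329 lower and -0.63 to 0.66 among all 21428 such probes. The difference was not tested. Scaling to spike-in RNA adds 0.078 to every log2 ratio, about as much as the median of the 762 NR_ probes lay below 0. These counts were not repeated under that scaling. Of the 639 genes with a probe that the table lists as long noncoding RNAs, 276 were compared.

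CYTOR, a noncoding RNA of the cytoplasm, had a signal of 2350 with #1 siHOTAIR and 3440 with siGFP (log2 ratio -0.60 ± 0.08), and LINC-PINT, a p53-induced noncoding RNA, had 585 and 428 (0.41 ± 0.11). Both were named after their values were seen, and each rested on 1 spot.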
